A study of Mus musculus with 20 samples.

Results

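The lines of the microRNA (miRNA) family miR-199 and its partner miR-214 were followed across small RNA libraries of primary midbrain neuron cultures from C57Bl6/J mouse embryos. All count lines whose name holds miR-199a, miR-199b or miR-214 were taken, which gave 5 of the 1886 lines. These were mmu-miR-199a-5p, a joined line for miR-199b-3p and miR-199a-3p (called miR-199-3p here), miR-199b-5p, mmu-miR-214-3p and miR-214-5p, written below without the species prefix. The set was chosen with its levels in these 20 libraries known, 3 of which held high values of it. The levels, fold changes and correlations of the 5 lines are therefore given as descriptions, without a p-value. Whether a line passed a threshold on p in the fits below is likewise a description and no test of the family.

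The cultures came from the ventral mesencephalon at embryonic day 12.5, freed of meninges, and were grown without serum on poly-L-ornithine and laminin in Neurobasal-A with B27, glutamine and ascorbic acid. There were 4 groups of 5 libraries, 20 in all. The groups were 5 days in vitro (DIV5) with 10 ng/ml GDNF in the medium, DIV5 without it (control), DIV1 with 10 ng/ml GDNF, and DIV1 control. GDNF, glial cell line-derived neurotrophic factor, is a survival factor for dopaminergic neurons, and the comparison asks what it does to small RNAs at each day. The labels do not say whether replicates are separate cultures or animals, so any spread between libraries may be technical. The cultures are mixed, and in bulk RNA fewer cells of a type cannot be told apart from less RNA per cell.

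A miRNA is cut from a hairpin in a longer transcript, and 1 or both arms (5p and 3p) are loaded into Argonaute, where bases 2 to 8, the seed, select target mRNAs. Mir199a-2 and Mir214 are made from 1 long non-coding transcript, Dnm3os, which runs opposite to an intron of Dnm3, the gene of a dynamin. In the mouse embryo this transcript is known from mesenchymal tissues such as cartilage, bone precursors and connective tissue around other organs, and both miRNAs are abundant in fibroblasts. Mir199a-1 and Mir199b are further copies that lie opposite to other dynamin genes.

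The mature sequences are shown because they set which lines can be told apart and which targets they could share. They are from RefSeq (GRCm38.p6, the assembly also called mm10), 5′ to 3′, with the seed in capitals. All of the 5 lines except miR-199b-5p had an entry.
miR-199a-5p: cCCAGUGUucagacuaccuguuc
miR-199a-3p and miR-199b-3p: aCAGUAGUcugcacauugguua
miR-214-3p: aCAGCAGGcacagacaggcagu
miR-214-5p: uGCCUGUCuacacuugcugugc
The 3p arms of miR-199a and miR-199b were identical letter for letter, which is why the line miR-199-3p cannot be split between their loci. No seed was shared between the other mature sequences shown. miR-199b-5p had no entry, so its seed was not read from a mature sequence. Its hairpin Mir199b, however, holds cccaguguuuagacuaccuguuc ahead of the 3p arm, a stretch that includes the miR-199a-5p seed CCAGUGU. Among 1679 mature names in the table, the miR-214-3p seed also belonged to miR-761, which had no read in any library, and the other seeds shown belonged to no further entry.

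The hairpins of the Dnm3os pair are shown with both mature arms in capitals, because these are the 2 loci that share a transcript. Mir199a-2 lies at chr1:162217814-162217923 and Mir214 at chr1:162223368-162223477, both on the plus strand of GRCm38, and each overlaps an annotated exon of Dnm3os.
Mir199a-2: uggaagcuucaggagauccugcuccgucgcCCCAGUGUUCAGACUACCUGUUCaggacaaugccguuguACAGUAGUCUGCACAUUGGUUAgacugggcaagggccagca
Mir214: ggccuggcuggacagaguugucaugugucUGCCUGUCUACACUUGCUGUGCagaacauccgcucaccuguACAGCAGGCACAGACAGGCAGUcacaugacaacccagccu
The hairpins are 5444 bases apart within the 7928 bases of Dnm3os. The other copies lie elsewhere: Mir199a-1 at chr9:21496495-21496564 on the minus strand, opposite to an intron of Dnm2, and Mir199b at chr2:32318460-32318569 on the plus strand, opposite to an intron of Dnm1. Mir199a-1 holds the same mature arms as Mir199a-2, so a miR-199a-5p read fits chromosome 1 and chromosome 9 alike. The lines miR-214-3p and miR-214-5p come from chromosome 1 only, and miR-199b-5p from Mir199b on chromosome 2.

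Library totals were 1781030 to 3983722 reads in DIV5 GDNF, 1061619 to 4324505 in DIV5 control, 420118 to 1761023 in DIV1 GDNF and 686793 to 1557885 in DIV1 control. At DIV5, libraries 1 and 2 of both groups had 1061619 to 1907937 reads, and libraries 3 to 5 had 2969524 to 4324505. Levels are CPM, read counts relative to library size, scaled by TMM factors. On this scale 1 read stood for 0.198 to 2.6 CPM, and the 3 reads that a count of 0 allows for 0.593 to 7.80 CPM (counting error only). A library without the 3 high values therefore held few reads of the rarer arms, above all at DIV1.

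The family was a minor part of the small RNA. miR-199-3p was its main line, with 9422 reads or 80.3% of the 11732 family reads, and ranked 161 by mean level, at 268 CPM. miR-199a-5p had 1584 reads and ranked 301 at 45.3 CPM, and miR-214-3p had 483 reads and ranked 410 at 13.6 CPM. The other arms, miR-199b-5p with 135 reads and miR-214-5p with 108, had means of 4.30 and 2.62 CPM. Of the 5 lines, 3 passed the filter on low counts and were tested (miR-199a-5p, miR-199-3p and miR-214-3p).

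In 3 libraries the summed level of the family stood far above the rest of its own group: DIV5 GDNF library 1, DIV1 GDNF library 1 and DIV1 control library 1. The summed level of the 5 lines was 1366, 1172 and 1160 CPM in these libraries, and 117 to 211 CPM in the other 17. That is 8.88, 6.44 and 6.24 times the median of the other 4 libraries of the same group. All 3 carry replicate number 1, but the fourth library of that number, DIV5 control library 1, was not high: its sum was 134 CPM, 0.726 times the median of its group's other libraries. Of the 3, 2 had GDNF and 1 did not, and 1 was of DIV5 and 2 of DIV1.

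**Figure D1:**
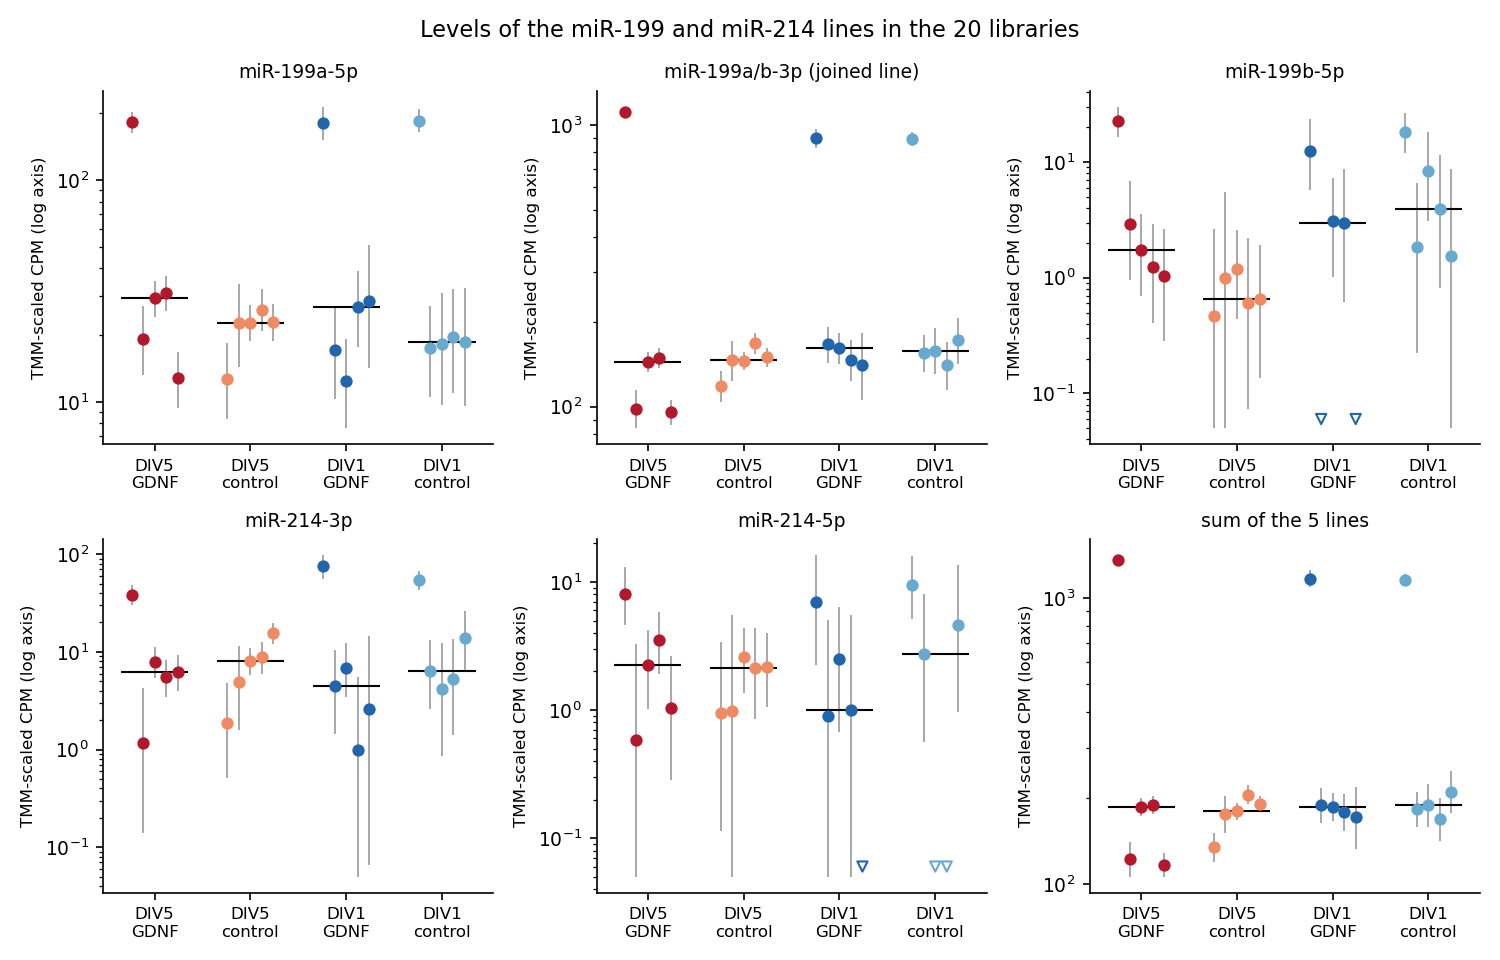
Level of each line and of the sum of the 5 lines (TMM-scaled CPM, log axis) in DIV5 GDNF, DIV5 control, DIV1 GDNF and DIV1 control. Each point is a library, in the order of replicate numbers 1 to 5 from left to right within a group, grey bars are exact 95% Poisson intervals (drawn no lower than 0.05 CPM), black lines are group medians and open triangles are counts of 0. The sum in library 1 was 1366 CPM in DIV5 GDNF, 1172 in DIV1 GDNF and 1160 in DIV1 control, and no other library passed 211 CPM.

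miR-199-3p, a family-wide arm known for dampening Mtor and Met in other cell types, showed this most precisely because it had most reads. It measured 1115, 98.1, 144.5, 148 and 95.5 CPM in DIV5 GDNF libraries 1 to 5, against 118, 146.1, 144.8, 168 and 149.6 CPM in DIV5 control libraries 1 to 5. At DIV1 it measured 897, 166, 161, 146.3 and 140.4 CPM with GDNF, against 892, 154.8, 158, 140.02 and 172 CPM without. Outside the 3 high libraries all values lay between 95.5 and 172 CPM. The exact 95% Poisson intervals of the high values were 1069 to 1162, 829 to 969 and 845 to 942 CPM, so counting error was far smaller than the gap.

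miR-199a-5p, the other arm of the 2 miR-199a hairpins and known in heart muscle cells for targeting Hif1a, had the same shape at a lower level. It measured 182, 19.3, 29.2, 30.9 and 12.7 CPM in DIV5 GDNF libraries 1 to 5, against 12.7, 22.7, 22.7, 26.04 and 22.9 CPM in DIV5 control libraries. At DIV1 it measured 181, 17.1, 12.5, 26.9 and 28.6 CPM with GDNF, against 185, 17.4, 18.2, 19.6 and 18.6 CPM without. The 3 high values lay within 5 CPM of each other although the libraries differed in day and treatment, and they were 7.50, 8.22 and 10.1 times the median of the other 4 libraries of their group. DIV5 control library 1 had the lowest value of its group.

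miR-214-3p, the main arm of the second Dnm3os hairpin, known in other tissues for targeting Ezh2, was also highest in these libraries. It measured 38.6, 1.17, 7.93, 5.49 and 6.24 CPM in DIV5 GDNF libraries 1 to 5, against 1.89, 4.94, 8.11, 8.78 and 15.5 CPM in DIV5 control libraries. At DIV1 it measured 75.0, 4.49, 6.85, 1.00 and 2.60 CPM with GDNF, against 54.6, 6.41, 4.19, 5.23 and 13.9 CPM without. The order among the high libraries differed from that of miR-199-3p: the DIV1 GDNF library was highest for miR-214-3p and the DIV5 GDNF library for miR-199-3p. Outside them, the line rested on 1 to 71 reads per library and spread from 1.00 to 15.5 CPM.

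The rarer arms were highest there too, on few reads. The exact 95% Poisson intervals of miR-214-5p in each high library met those of other libraries of the group, as did those of miR-199b-5p at DIV1. In DIV1 GDNF miR-214-5p had 2.26 to 16.2 CPM in library 1 and 0.679 to 6.38 CPM in library 3. In DIV1 control miR-199b-5p had 12.0 to 26.5 CPM in library 1 and 3.08 to 18.3 CPM in library 3. miR-199b-5p, the arm that marks the chromosome 2 copy, had 45, 9 and 27 reads in the DIV5 GDNF, DIV1 GDNF and DIV1 control libraries numbered 1, or 22.6, 12.5 and 18.2 CPM, while the remaining 17 spread from 0 to 8.39 CPM. miR-214-5p, the less abundant arm of miR-214, had 16, 5 and 14 reads there, or 8.02, 6.95 and 9.43 CPM, while the remaining 17 spread from 0 to 4.65 CPM. So the high libraries were highest for the line of Mir199b on chromosome 2 as well as for the lines of the Dnm3os pair on chromosome 1.

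**Figure D2:**
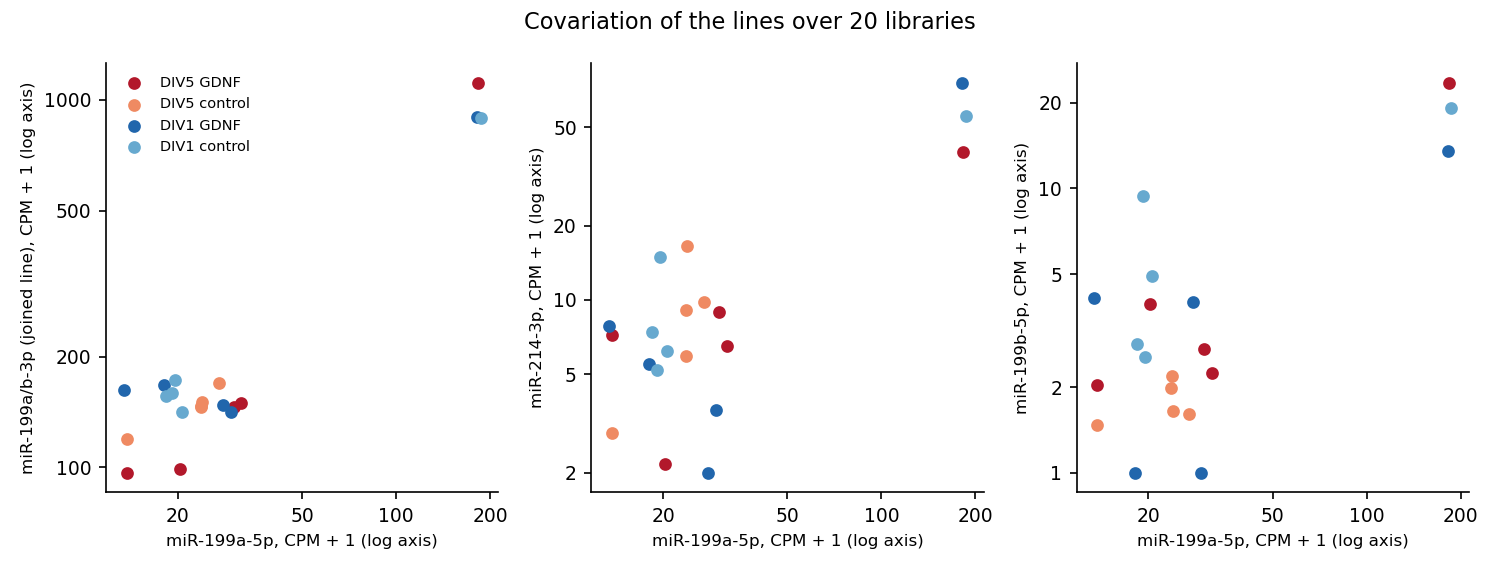
miR-199a-5p (horizontal) against miR-199-3p, miR-214-3p and miR-199b-5p (vertical) in the 20 libraries, as TMM-scaled CPM + 1 on log axes, with the group of each library in colour. In each panel 3 points stand at the upper right (miR-199a-5p at 181 to 185 CPM) and the other 17 form a cloud between 12.5 and 30.9 CPM of miR-199a-5p.

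Across the 20 libraries all 10 pairs of the 5 lines correlated positively on the log2(CPM + 1) scale, and the correlation rested on the 3 high libraries. Pearson's r was 0.505 to 0.948 with a median of 0.767, and after removing group means it was 0.536 to 0.956. Spearman's rho, which gives the 3 libraries less weight, was 0.323 to 0.813. Over the other 17 libraries r was -0.182 to 0.603 with a median of 0.0507, and 6 of 10 pairs were above 0. For miR-199a-5p and miR-214-3p, whose Mir199a-2 and Mir214 hairpins share Dnm3os, r was 0.788 (rho 0.439) over 20 libraries and 0.0276 over 17. Leaving out only the 2 libraries farthest from the median miR-199a-5p level, DIV1 control library 1 and DIV5 GDNF library 1, gave 0.642, with DIV1 GDNF library 1 still in.

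Within the cloud of 17, r was highest for the 2 arms of miR-214. These, cut from the same hairpin, gave r = 0.603 over 17 libraries, against 0.819 over 20. miR-199-3p and miR-214-3p gave 0.47 over 17, against 0.853 over 20. miR-199a-5p and miR-199-3p gave 0.304 over 17, against 0.948 over 20, and 0.543 over 17 once group means were removed. The pairs with miR-199b-5p ranged from -0.182 to -0.00446 over 17. All lines share library, depth and scaling, and at 0 to 8.39 CPM the miR-199b-5p values over 17 libraries were 0 to 7 reads, so a weak r there is no finding.

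The proportions between the lines in the high libraries lay inside the pooled range of the other 17 libraries, but not always inside that of their own group. miR-199a-5p made up 14.0% of the miR-199a-5p and miR-199-3p reads in DIV5 GDNF library 1 (Wilson 95% interval 12.8 to 15.4), 16.8% in DIV1 GDNF library 1 (14.3 to 19.5) and 17.2% in DIV1 control library 1 (15.4 to 19.1). In the other 17 libraries this share was 7.17% to 17.2%. Within its own group DIV1 control library 1 was highest, with 9.76% to 12.3% in the other libraries, whose Wilson intervals reached up to 19.3%. The chromosome 2 arm miR-199b-5p made up 11.03%, 6.47% and 8.94% of the miR-199 5p reads in the same 3 libraries, against 0% to 31.6% in the others. There the shares of 0% rested on 19 and 11 reads with Wilson upper bounds of 16.8% and 25.9%. The 31.6%, in DIV1 control library 3, rested on 6 of 19 reads (15.4 to 54.0).

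Between the 2 Dnm3os hairpins the proportion varied more. miR-214-3p made up 3.35% of the miR-214-3p and miR-199-3p reads in DIV5 GDNF library 1 (2.69 to 4.16), 7.71% in DIV1 GDNF library 1 (5.96 to 9.93) and 5.77% in DIV1 control library 1 (4.66 to 7.11). The first of these intervals did not meet the other 2, and the other 17 libraries spread from 0.676% to 9.39%. Within its own group DIV1 GDNF library 1 was highest, with 0.676% to 4.07% in the other libraries, on 1 to 11 miR-214-3p reads. miR-214-5p made up 17.2%, 8.47% and 14.7% of the miR-214 reads in the 3 libraries, against 0% to 50% in the others. There the shares of 0% rested on 1, 3 and 4 reads with Wilson upper bounds of 79.3%, 56.1% and 49.0%. The 50%, in DIV1 GDNF library 4, rested on 1 of 2 reads (9.45 to 90.5). For the miR-199b-5p and miR-214-5p shares, lying inside ranges set by so few reads says little. The libraries carry no molecular identifiers that the labels mention, so reads may be PCR copies and these intervals cover counting error only.

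**Figure D3:**
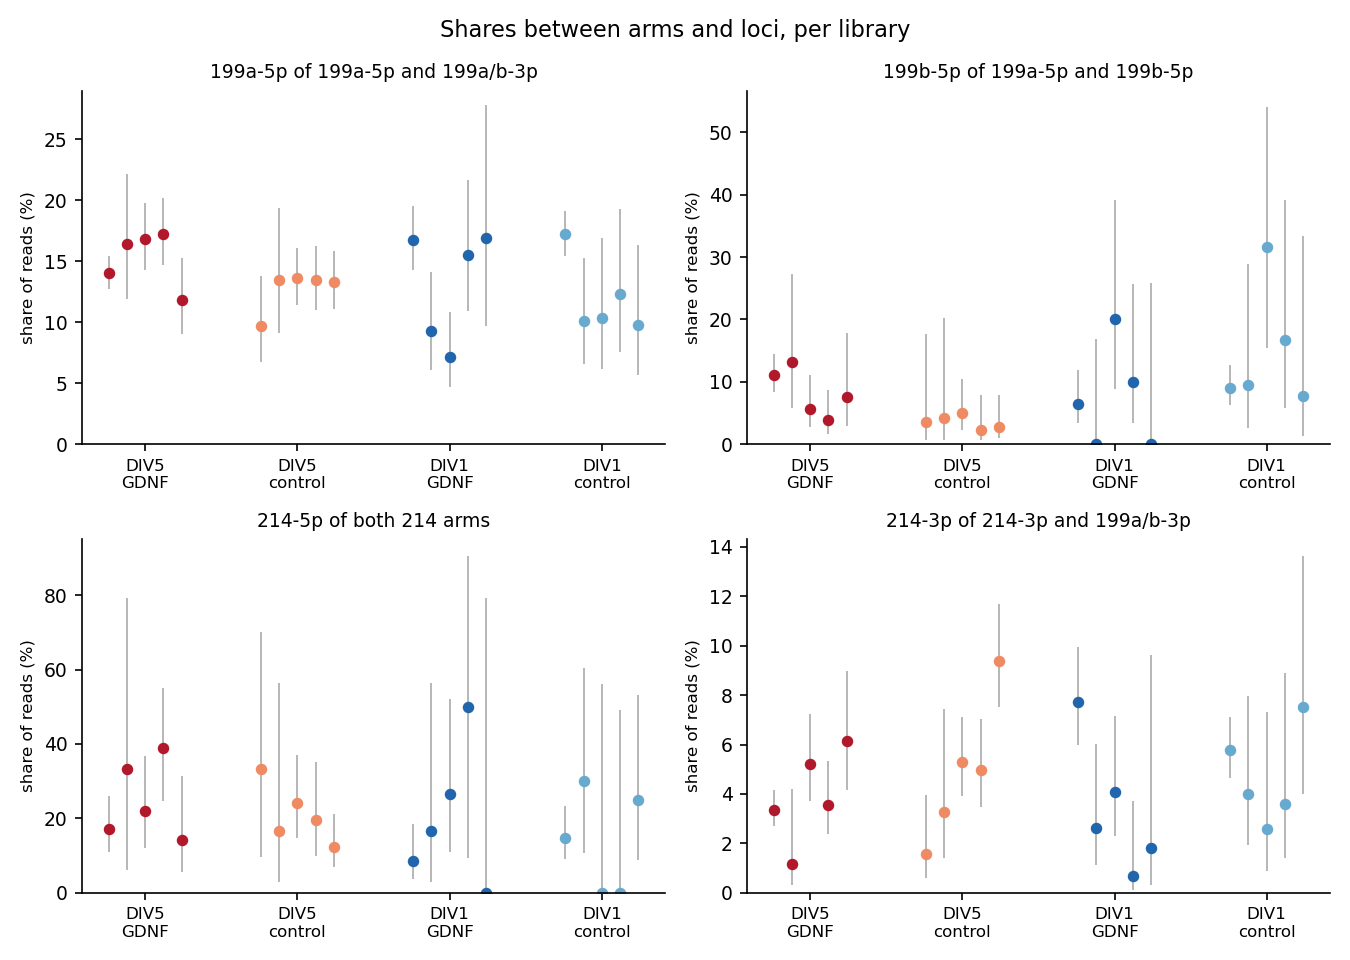
Share of reads (percent) of 1 line among 2 lines of the family in each library, by group: miR-199a-5p of miR-199a-5p and miR-199-3p, miR-199b-5p of the miR-199 5p reads, miR-214-5p of the miR-214 reads, and miR-214-3p of miR-214-3p and miR-199-3p. Points are libraries in the order of replicate numbers and bars are Wilson 95% intervals. The miR-199a-5p share in library 1 was 14.0% in DIV5 GDNF, 16.8% in DIV1 GDNF and 17.2% in DIV1 control. The other 17 libraries spread from 7.17% to 17.2%, and the rest of DIV1 control from 9.76% to 12.3%.

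Few other miRNAs were raised in the same libraries. Of 541 tested lines with a ratio to the median of the group's other 4 libraries in each of the 3, 3 reached at least 3-fold in all of them, and those were the 3 tested family lines. The libraries were picked by the level of the family, so this count describes them and supports nothing. At 2-fold there was 1 more, miR-574-5p, chosen here after its values were seen. It measured 11.5, 15.3 and 8.09 CPM in DIV5 GDNF, DIV1 GDNF and DIV1 control library 1 (23, 11 and 12 reads), but also 12.8 CPM in DIV5 control library 2, in a group that spread from 2.42 to 12.8 CPM. The median ratio of all tested lines was 0.999, 0.993 and 0.983 in the 3 libraries.

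The miRNAs whose pattern was most like the summed level of the 5 family lines (log2(CPM + 1)) were sought among 436 lines with a mean of at least 10 CPM. Within groups, r over 20 libraries was 0.775 for miR-344d-3p, 0.742 for miR-409-3p, 0.731 for miR-676-3p, 0.714 for miR-466g, 0.709 for miR-431-5p, 0.703 for miR-6944-3p, 0.68 for miR-540-3p and 0.635 for miR-668-3p. Without removing group means the 5 highest were miR-676-3p, miR-431-5p, miR-540-3p, miR-668-3p and miR-485-5p, with r of 0.73, 0.692, 0.672, 0.586 and 0.578. Their rise was small: their ratios in the 3 high libraries were 1.03 to 1.76, against 5.70 to 21.2 for the tested family lines. Over the other 17 libraries the within-group r of these 9 lines was -0.0936 to 0.615, and the highest was that of miR-409-3p, which like miR-431-5p, miR-540-3p, miR-668-3p and miR-485-5p belongs to the imprinted Dlk1-Dio3 cluster.

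For GDNF at DIV5 the fold changes of the family were positive, and they rested on 1 library. By edgeR, DIV5 GDNF over DIV5 control was 1.33 (SE 0.871) on the log2 scale for miR-199a-5p, 1.13 (SE 0.757) for miR-199-3p and 0.45 (SE 0.92) for miR-214-3p. Means of miR-199a-5p were 54.9 ± 71.5 CPM in DIV5 GDNF and 21.4 ± 5.07 CPM in DIV5 control (SD, n = 5 each), while the medians were 29.2 and 22.7 CPM and the groups overlapped. None of the 3 was called at an adjusted p of 0.05, where 0.185% of the 542 tested lines were, and none had an unadjusted p under 0.05, where 88 of the 542 had. DESeq2 called 26 of all lines and limma voom 1, none of them in the family. Without the 3 high libraries, of which only DIV5 GDNF library 1 belongs to this comparison, the log2 fold changes were 0.11, -0.26 and -0.59. The fits so far ignored the replicate numbers. These were taken as pairs at DIV5, though the pair numbered 1 deviated together least (r = 0.207). With the numbers as a block within each day the values were 0.59, 0.25 and 0.08. Then 3 tested lines were called instead of 1, none of them in the family.

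At DIV1, where a high library stood in each arm, the difference was near 0. The log2 fold change of DIV1 GDNF over DIV1 control was -0.06 for miR-199a-5p, -0.02 for miR-199-3p and -0.10 for miR-214-3p (SE 0.998). Means of miR-199-3p were 302 ± 333 CPM in DIV1 GDNF and 303 ± 329 CPM in DIV1 control (SD, n = 5 each). None of the 3 was called, against 0% of the 542 tested lines, none had an unadjusted p under 0.05 (7 of 542 tested lines had), and DESeq2 and limma voom called none. Without the high libraries the values were 0.12, -0.04 and -0.81, the last on 1 to 11 reads per library. The difference of the GDNF effects, DIV5 minus DIV1, was 1.39 (SE 1.24), 1.15 (SE 1.07) and 0.55 (SE 1.36) with all libraries and -0.01, -0.22 and 0.21 without the 3. No family line was called for it, against 0% of the 542 tested lines, and none had an unadjusted p under 0.05, where 50 of the 542 had.

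Between days without GDNF the fold changes were negative, and they rested on DIV1 control library 1. DIV5 control over DIV1 control was -1.33 (SE 0.885) for miR-199a-5p, -1.07 (SE 0.76) for miR-199-3p and -1.14 (SE 0.953) for miR-214-3p on the log2 scale. Without the 3 high libraries the values were 0.24, -0.08 and 0.22. None of the 3 was called with all libraries, where 60.7% of the 542 tested lines were, and none without those libraries. The medians of the summed level were 179 CPM in DIV5 control and 189 CPM in DIV1 control.

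With GDNF, DIV5 over DIV1 was 0.06 for miR-199a-5p, 0.08 for miR-199-3p and -0.58 (SE 0.98) for miR-214-3p, with a high library on each side. Without the 3 high libraries it was 0.23, -0.30 and 0.44. No family line was called, where 52.4% of the 542 tested lines were. In neither comparison of days did any of the 3 lines have an unadjusted p under 0.05, where 346 of the 542 had without GDNF and 316 with it. Neither DESeq2, which called 336 lines without GDNF and 297 with it, nor limma voom, which called 315 and 285, called any of the 3. In the order of the 4 comparisons, GDNF at DIV5, GDNF at DIV1, days without GDNF and days with GDNF, the median log2 fold change of the 3 lines was 1.13, -0.06, -1.14 and 0.06, beside -0.00063, 0.03, 0.10 and 0.0017 over all 542 tested lines. Comparisons that share a group, such as the days without GDNF and GDNF at DIV5, share its libraries.

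**Figure D4:**
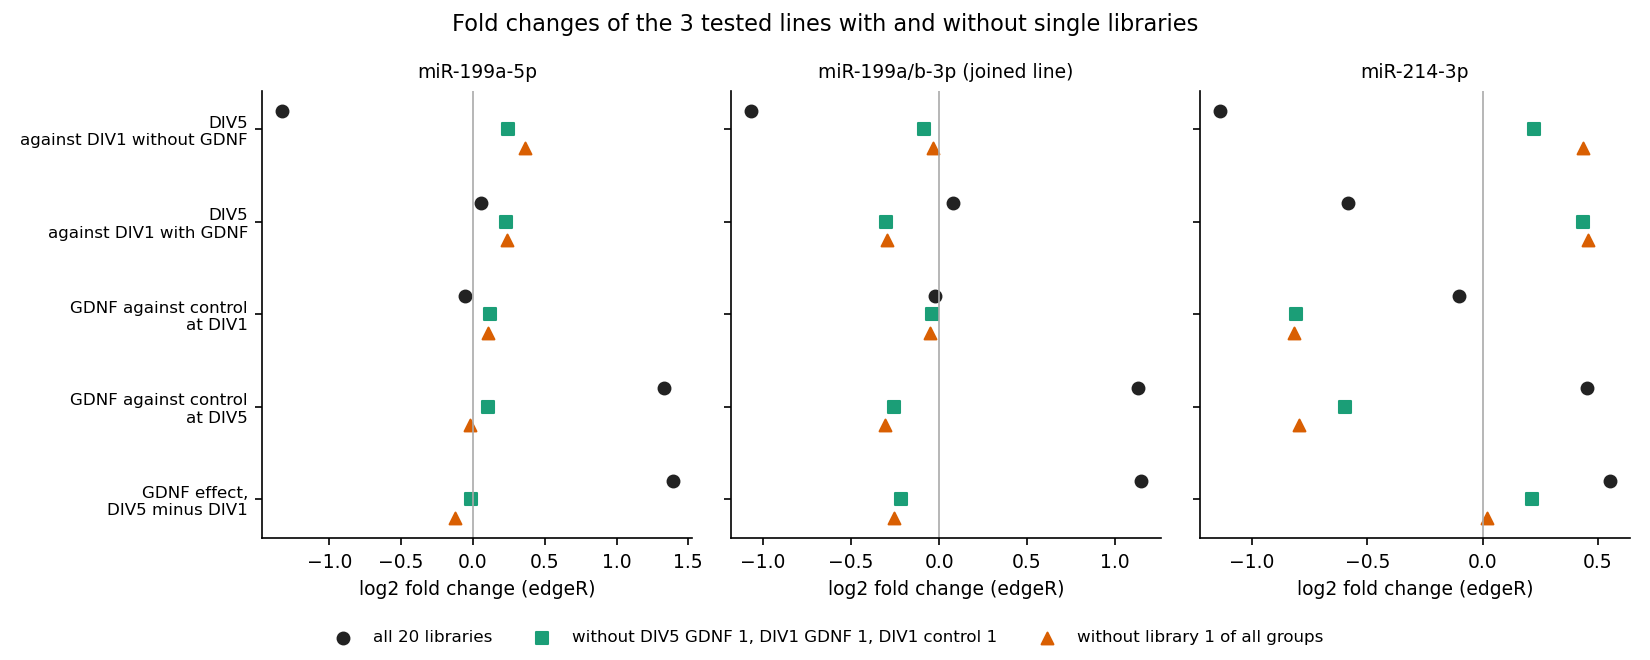
Log2 fold change (edgeR) of miR-199a-5p, miR-199-3p and miR-214-3p in the 5 comparisons, with all 20 libraries (circles), without DIV5 GDNF, DIV1 GDNF and DIV1 control library 1 (squares), and without library 1 of all groups (triangles). For GDNF at DIV5 miR-199a-5p moved to 0.11 without the 3 libraries, against 1.33 with them, and for DIV5 against DIV1 without GDNF to 0.24, against -1.33.

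The groups overlapped for nearly all lines. Of the 5 lines, 1 did not overlap between DIV5 and DIV1 without GDNF, where 39.3% of the 542 tested lines did not. This was miR-199b-5p, at 0.471 to 1.19 CPM in DIV5 control and 1.55 to 18.2 CPM in DIV1 control, on 1 to 6 reads per library in DIV5 control and 1 to 27 in DIV1 control. As 3 reads were worth up to 4.65 CPM in DIV1 control, most of these values lay at or near the counting limit. The line failed the filter with all libraries. It was tested in 12 of 22 alternatives for this comparison, 1 of them unfiltered, with log2 fold changes of -3.43 to -2.91, and was called in 9. It failed the filter without DIV1 control library 1 or 3 and without the 3 high libraries. Passing thus rested on libraries where the line was high, and the set was chosen with high values known, so these calls support nothing. With GDNF 0 of 5 lines were apart between days, beside 36.9% of the tested lines, and between GDNF and control 0 of 5 were at either day, beside 0.185% at DIV1 and 0.923% at DIV5.

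Markers of other cell types were compared with the family, since mesenchymal and vascular cells can accompany dissected brain. miR-143-3p and miR-145a-5p, known from smooth muscle and pericytes, led a list of mural miRNAs with a median summed level of 583 CPM in DIV5 GDNF, 533 in DIV5 control, 2891 in DIV1 GDNF and 3368 in DIV1 control. Its summed level ranged from 180 to 1769 CPM in DIV5 GDNF, 409 to 1332 in DIV5 control, 2702 to 3173 in DIV1 GDNF and 2729 to 3806 in DIV1 control. At DIV5 its sum was higher in libraries 1 and 2 than in 3 to 5, at 1769 and 1387 against 180 to 583 CPM with GDNF. Without GDNF it was 1332 and 1099 against 409 to 533 CPM. All 3 tested lines of this list fell at DIV5, with and without GDNF, where 27.3% and 29.3% of all tested lines fell. miR-143-3p fell by 2.10 (SE 0.463, adjusted p = 0.00079, edgeR) on the log2 scale without GDNF. The list of other mesenchyme and cartilage miRNAs had medians of 1848, 2264, 1484 and 1519 CPM in the same order of groups. Of its 8 tested lines, 4 rose and 0 fell at DIV5 without GDNF, where 31.4% of all tested lines rose, and 1 rose and 0 fell with GDNF, where 25.1% rose. The summed level of the miR-199 and miR-214 lines had medians of 186, 179, 186 and 189 CPM in the same order of groups. Endothelial miR-126a-3p also fell, by 1.49 without GDNF (adjusted p = 0.000831, edgeR), with medians of 26.7 CPM in DIV5 control and 75.5 CPM in DIV1 control. The lists were chosen with earlier results of these data known, so the calls and adjusted p-values of their lines are descriptions.

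In the high libraries these lists rose less than the family or did not rise. The mural sum was 3.59 times the median of the other 4 libraries in DIV5 GDNF library 1, but 1.12 times in DIV1 GDNF library 1 and 1.21 times in DIV1 control library 1. DIV5 GDNF library 2, not high for the family, had a mural sum of 1387 CPM, beside 1769 CPM in library 1. The endothelial sum was 1.48, 1.55 and 2.03 times that median in the 3 libraries. DIV5 control library 1, which was not high for the family, had ratios of 2.54 for the mural and 2.80 for the endothelial list. It was the highest of its group for both. A list of other miRNAs known from cartilage and mesenchyme, led by miR-140-3p, had ratios of 0.936, 0.925 and 1.17, and miR-10b-5p, a miRNA of the Hoxd cluster, 2.75, 0.833 and 0.808. The part of any of these cells in the family's level was not tested.

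The ratios of the other lists in the 3 libraries lay on both sides of 1. The neuronal sum, led by miR-128-3p and miR-124-3p, was 17160, 6562 and 6321 CPM in the 3 high libraries, the lowest of each group, or 0.896, 0.779 and 0.768 times the median of the others. The neural progenitor sum, led by miR-9-5p, had ratios of 0.689, 0.973 and 0.901. Its 2 most abundant arms differed, with ratios of 0.645, 0.765 and 0.656 for miR-9-5p and 0.940, 1.24 and 1.25 for miR-92b-3p. In each of these libraries miR-9-5p was the lowest of its group. The astrocyte and glia sum, led by miR-21a-5p, had ratios of 1.02, 1.03 and 0.910, and the leukocyte and microglia sum, led by miR-142a-5p, 0.940, 1.15 and 1.47. The erythroid sum, nearly all miR-486, had 0.677, 1.17 and 1.25, and epithelial miRNAs such as the miR-200 family summed to 4.24 to 13.9 CPM in all libraries, with 0 lines passing the filter and ratios of 0.789, 1.24 and 0.588. The neuronal markers were present at 6321 to 26225 CPM in every library, as the label of the culture says. Of the 39 tested lines of all 9 lists, none was called for GDNF at either day, where 0.185% of all tested lines were at DIV5 and 0% at DIV1.

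**Figure D5:**
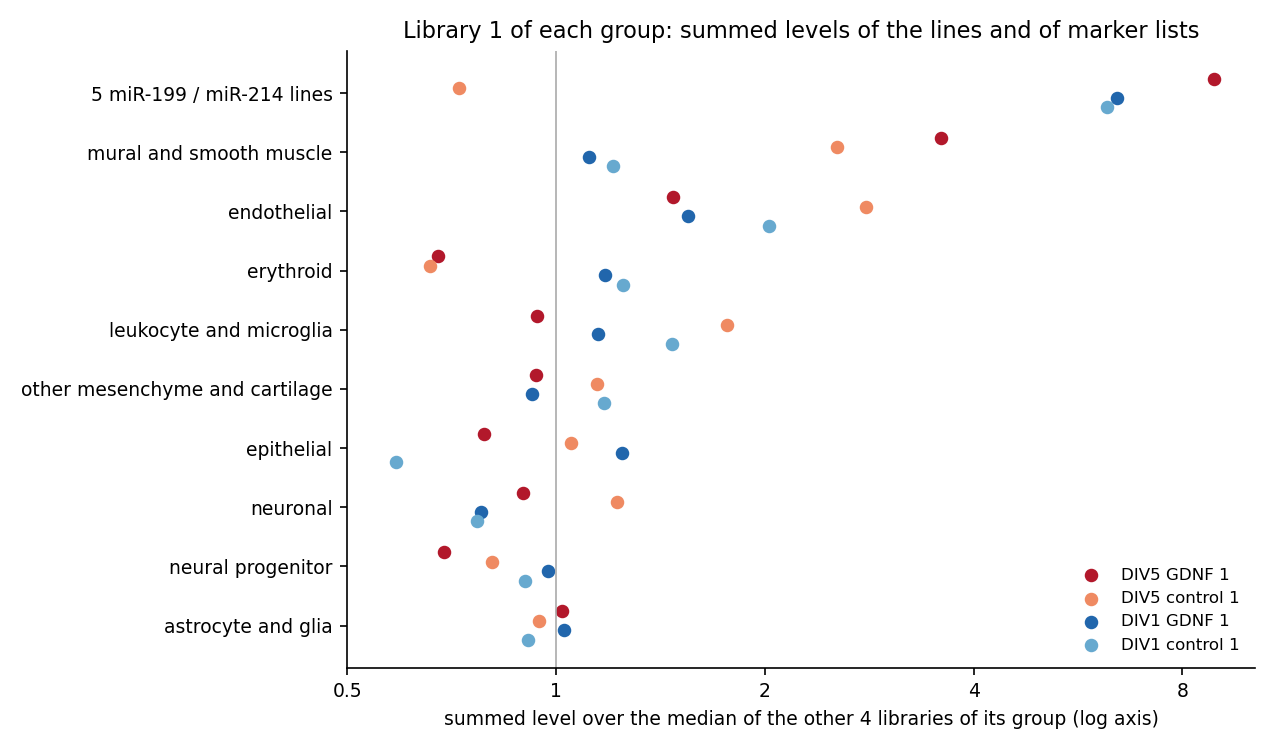
Summed level in library 1 of each group divided by the median of the other 4 libraries of that group (log axis), for the 5 miR-199 and miR-214 lines and for 9 marker lists. The family reached 8.88 in DIV5 GDNF library 1, 6.44 in DIV1 GDNF library 1 and 6.24 in DIV1 control library 1, against 0.726 in DIV5 control library 1, and among the marker lists the largest ratio was 3.59.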

How the data were processed

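Small RNA from Tri-reagent extracts was sequenced from TruSeq libraries, 1 per sample. Each deposited file holds 1 library as whole-number counts for mature miRNAs, not normalized. The submitters' processing notes name cutadapt 1.8.1, HTSeq (version not given), STAR 2.4.1d and build mm10 for the steps before deposit. Counting by HTSeq can leave out reads that fit several hairpin copies, and how such reads were treated is not given in the sources used here. The tallies other than no feature were 0 in every library, so they record no read left out for this. miR-199a-5p, which fits chromosomes 1 and 9 alike, had 1584 reads. Reads removed before counting would not show in the tallies. Reads assigned to no feature made up 9.51% to 22.6% of each library and were left out. At DIV5 they made up 17.7% to 19.5% in libraries 1 and 2 of both groups, and 9.51% to 13.3% in libraries 3 to 5.

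Counts were scaled with TMM factors, filtered with filterByExpr (542 of 1581 lines with a read kept, at least 99.9% of the counts) and fitted with edgeR 4.0.16 in R 4.3.3 (glmQLFit, glmQLFTest, 1 coefficient per group, Benjamini-Hochberg adjustment over all lines, two-sided). The SE is the log2 fold change divided by the square root of F. The fit was tested on simulated data. DESeq2 1.42.0 and limma 3.58.1 were alternatives. Correlations are on log2(CPM + 1). Replicate numbers were taken as pairs where all 5 same-numbered pairs of 2 groups deviated together with r over 0.1. This held at DIV5 (0.207 to 0.533) and not at DIV1 (0.023 to 0.509, 4 of 5). The pair numbered 1 had the lowest r at DIV5, 0.207, and the highest at DIV1, 0.509. Across days, DIV5 GDNF library 1 had r = 0.147 with DIV1 GDNF library 1 and 0.245 with DIV1 control library 1, the highest of the 5 pairs each time. For DIV5 control library 1 the values were -0.136 and -0.112. What these r rest on was not tested. The block was fitted within each day as an alternative, and the main fit had no block. Named miRNAs are all family lines, the 8 most like them within groups and the 5 most like them across groups, and the 2 most abundant arms of each marker list; others are said to be chosen after their values were seen. The family, the marker lists and the tests were chosen with earlier results of these data known. No 2 libraries of a group were near-identical (lowest chi-square per degree of freedom 12.4).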

Additional observations from a re-analysis of the deposited data

Results flagged for a closer look

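Each group of 5 libraries was checked for a library far from the others (Dixon's criterion, 0.71 for 5 libraries). Over 112 checks of 28 quantities there were 21 such values, 17 of them high values of the family or of miR-344d-3p, or a low erythroid sum, in the 3 libraries that stood apart. Chance flags about 1 in 20 groups, but no comparison with that rate can be drawn here, because the family was chosen with these values known, miR-344d-3p was picked for its likeness to it, and the sum repeats its lines.

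miR-199a-5p was far from its group at 182.1 CPM in DIV5 GDNF library 1, 180.6 CPM in DIV1 GDNF library 1 and 185.3 CPM in DIV1 control library 1. It was also far from its group, on the low side, in DIV5 control library 1 at 12.72 CPM, where the nearest other value was 22.71 CPM. The joined miR-199-3p line was far from its group in the same 3 high libraries, at 1115, 897.3 and 892.2 CPM. miR-214-3p was so at 38.62, 75.01 and 54.58 CPM, and the sum of the 5 lines at 1366, 1172 and 1160 CPM. miR-199b-5p was so in DIV5 GDNF library 1 at 22.57 CPM and in DIV1 GDNF library 1 at 12.5 CPM.

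The miR-199a-5p share of miR-199a-5p and miR-199-3p reads was far below its group in DIV5 control library 1, at 9.712%, where the nearest other value was 13.29%. The erythroid sum was low in DIV5 GDNF library 1 at 4217 CPM, with the nearest other at 5891 CPM. The leukocyte and microglia sum was high in DIV5 GDNF library 2 at 40.3 CPM, and the sum of the other mesenchyme and cartilage list was high in DIV1 GDNF library 5 at 2095 CPM. miR-344d-3p was high in DIV1 GDNF library 1 at 262.5 CPM and in DIV1 control library 1 at 262.1 CPM.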

How the results depend on the processing

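The median log2 fold change of the 3 tested lines depended on which libraries numbered 1 were kept. For GDNF at DIV5 it was 1.13 with all libraries, 2.47 with DIV5 libraries 1 and 2 only, -0.248 with DIV5 libraries 3 to 5 only, -0.257 without the 3 high libraries and -0.308 without library 1 of all groups, the last 2 settings chosen after seeing the data. Leaving out 1 library at a time gave -0.255 (without DIV5 GDNF library 1) to 1.37. For GDNF at DIV1 (-0.06) leaving out 1 library gave -1.44 (without DIV1 GDNF library 1) to 1.24 (without DIV1 control library 1). For DIV5 against DIV1 without GDNF (-1.14) it was 0.224 without the 3 libraries and 0.362 without library 1 of all groups, and leaving out 1 gave -1.34 to 0.228 (without DIV1 control library 1). For DIV5 against DIV1 with GDNF (0.06) leaving out 1 gave -1.3 (without DIV5 GDNF library 1) to 1.46 (without DIV1 GDNF library 1). For the difference of the GDNF effects (1.15) it was 2.59 with DIV5 libraries 1 and 2, -0.198 with libraries 3 to 5 and -0.125 without library 1 of all groups, and leaving out 1 gave -0.224 (without DIV5 GDNF library 1) to 2.62 (without DIV1 GDNF library 1). The correlation of miR-199a-5p with miR-214-3p (0.788) was 0.0276 without the 3 libraries, -0.124 without library 1 of all groups, 0.642 without the 2 farthest libraries and 0.708 to 0.835 with 1 left out. Within groups (0.812) it was 0.0648, -0.236 and 0.721 to 0.851 for the first, second and last of these. The replicate block gave a median of 0.249 for GDNF at DIV5, -0.274 for DIV5 against DIV1 without GDNF and 0.259 for the difference of the GDNF effects, and limma voom gave 0.329 for GDNF at DIV5 (miR-214-3p at -0.113) and -0.688 for DIV5 against DIV1 without GDNF. No family line was called in any comparison with the replicate block, another normalization or filter, DESeq2 or limma voom. With fewer libraries in the fit miR-199b-5p passed the filter in some settings. For DIV5 against DIV1 without GDNF it was called in 9 of 22 alternatives. Of these, 8 left out 1 library and 1 kept DIV5 libraries 3 to 5 only. These calls support nothing, as the line failed the filter without DIV1 control library 1 or 3. No other family line was called in any alternative. The count of all lines called for GDNF at DIV5 (1) was 26 by DESeq2, 13 among lines of at least 10 CPM, 3 with the replicate block, 2 with either set of DIV5 numbers, 0 without DIV5 control libraries 1 and 5, when only the DIV5 groups were fitted, without the 3 libraries or without library 1 of all groups, and 0 to 43 with 1 library left out (43, 32 and 37 without DIV5 control library 2, 3 or 4). When only the DIV1 groups were fitted, miR-214-3p failed the filter and has no value. Depth limits miR-199b-5p and miR-214-5p, which outside the high libraries had 0 to 14 reads.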
